A study of Mus musculus with 3 samples.

Results

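Genes of fatty acyl metabolism and of the peroxisome were compared between mouse liver and spleen. The 41 genes, measured by 67 of 16273 spots, were those whose symbol in the platform annotation begins with one of a set of family names. These names cover the acyl-CoA synthetases (Acsl, Acsm, Acss), carnitine palmitoyltransferases (Cpt1, Cpt2), acyl-CoA dehydrogenases and oxidases (Acad, Acox), hydratases, isomerases, reductases and thiolases (Ech, Eci, Had, Decr, Acaa, Acat), and electron transfer flavoprotein (Etf). They also cover the thioesterases (Acot), carboxylases, elongases and desaturases (Acac, Elovl, Fads), acyltransferases (Agpat, Dgat), the Hsd17b dehydrogenases and the numbered peroxins (Pex), with Ehhadh, Pecr, Scp2 and Bdh1 added by name. The genes so found were 41 of 7984 named on the platform. No spot carried a Cpt1, Cpt2, Acox, Acsm, Acss, Acac, Acat, Had or Ehhadh symbol, so carnitine-dependent entry and the committed step of synthesis are not covered.

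The series holds 3 two-colour cDNA arrays in 1 group, each hybridised with spleen labelled with Cy3 and liver labelled with Cy5. Per the labels, both tissues were bought as total RNA from Clontech, under 1 catalogue number per tissue, and amplified to cRNA by a method with a double round. The sources used here do not give strain, age, sex or the number of animals behind a preparation, and nothing says that the arrays came from separate RNA lots or amplifications. The p-values therefore rest on the spread between arrays, perhaps all of it technical. For a gene with several spots, that spread can also include a change in which spots had a ratio on each array. The dyes were not exchanged on any array, so dye and tissue cannot be told apart. In whole-tissue RNA, more cells of a type and more RNA per cell cannot be told apart either.

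Fatty acids are burned by beta-oxidation, in which an acyl-CoA is shortened by repeated rounds of dehydrogenation, hydration, dehydrogenation and thiolysis. Mitochondria oxidise most dietary fatty acids and pass the electrons through electron transfer flavoprotein to the respiratory chain, while peroxisomes start on very long and branched chains. Hepatocytes are known for high rates of both, for turning the acetyl-CoA into ketone bodies, and for building long polyunsaturated fatty acids and triglyceride. Peroxins build the peroxisome and import its enzymes.

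All values are log2 ratios of the channels, given per gene as the mean over its spots with a ratio. Positive values are called liver over spleen. That direction is likely rather than stated: of 12 hepatocyte markers only Apoh, Fgb and Ttr had a spot, with medians of 4.90, 5.15 and 3.75 on arrays 1, 2 and 3, and of 8 spleen markers Ms4a1, Ighm, Cd74 and Coro1a had one, with medians of -2.68, -3.06 and -1.57. An exact 0 was read as a missing ratio, which left 54, 47 and 63 of the 67 spots with a ratio on the 3 arrays. Of the 41 genes, 29 had a ratio on all 3 arrays and were tested, 6 had 2 arrays, 5 had 1 array, and Agpat3 had none. Every error is an SD over 3 arrays unless an n is given.

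The 250 bases before the annotated start are shown for 7 genes that the results turn on: Pecr and Elovl2, which stood highest toward liver, Acot9 and Scp2, which were called toward spleen, Acadm and Acadvl of the chain-length series, and Pex11g, whose spots opposed each other. Capitals mark AGGTCA or its complement TGACCT, the element bound by many nuclear receptors, PPAR-RXR among them. The sequences are from RefSeq, build GRCm38.p6, written 5′ to 3′ on the strand of the gene.
Pecr, chr1:72284322-72284571, minus strand: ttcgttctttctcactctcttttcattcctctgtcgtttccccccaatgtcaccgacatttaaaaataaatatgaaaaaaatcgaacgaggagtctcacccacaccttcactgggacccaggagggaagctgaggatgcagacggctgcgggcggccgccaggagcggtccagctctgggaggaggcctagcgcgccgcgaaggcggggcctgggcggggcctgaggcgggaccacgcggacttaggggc
Elovl2, chr13:41220404-41220653, minus strand: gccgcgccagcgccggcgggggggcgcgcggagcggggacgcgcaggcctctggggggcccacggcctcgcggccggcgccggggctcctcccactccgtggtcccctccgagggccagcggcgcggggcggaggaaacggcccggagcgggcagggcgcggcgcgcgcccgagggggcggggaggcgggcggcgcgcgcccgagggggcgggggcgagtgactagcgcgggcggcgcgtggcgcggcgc
Acadm, chr3:153944644-153944893, minus strand: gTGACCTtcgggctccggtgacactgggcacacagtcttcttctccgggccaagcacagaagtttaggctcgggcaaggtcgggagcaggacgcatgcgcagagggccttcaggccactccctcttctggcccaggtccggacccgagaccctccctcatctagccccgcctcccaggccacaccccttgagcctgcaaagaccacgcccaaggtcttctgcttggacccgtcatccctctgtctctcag
Acadvl, chr11:70015429-70015678, minus strand: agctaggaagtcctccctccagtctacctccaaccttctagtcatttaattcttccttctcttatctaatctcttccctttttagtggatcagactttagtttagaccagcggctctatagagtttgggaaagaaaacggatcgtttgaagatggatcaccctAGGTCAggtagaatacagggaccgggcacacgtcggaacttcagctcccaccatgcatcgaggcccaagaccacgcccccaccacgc
Scp2, chr4:108118548-108118797, minus strand: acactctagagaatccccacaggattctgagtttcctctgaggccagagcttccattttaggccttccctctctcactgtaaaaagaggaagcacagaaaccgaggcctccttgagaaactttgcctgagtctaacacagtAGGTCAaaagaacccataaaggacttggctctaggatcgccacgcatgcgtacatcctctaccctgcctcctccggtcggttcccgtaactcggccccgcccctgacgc
Pex11g, chr8:3467649-3467898, minus strand: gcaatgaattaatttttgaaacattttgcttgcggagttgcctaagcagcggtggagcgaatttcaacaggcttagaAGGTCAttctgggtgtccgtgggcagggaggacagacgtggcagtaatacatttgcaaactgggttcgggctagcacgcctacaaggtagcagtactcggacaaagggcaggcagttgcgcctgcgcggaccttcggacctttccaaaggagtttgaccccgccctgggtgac
Acot9, chrX:155262193-155262442, plus strand: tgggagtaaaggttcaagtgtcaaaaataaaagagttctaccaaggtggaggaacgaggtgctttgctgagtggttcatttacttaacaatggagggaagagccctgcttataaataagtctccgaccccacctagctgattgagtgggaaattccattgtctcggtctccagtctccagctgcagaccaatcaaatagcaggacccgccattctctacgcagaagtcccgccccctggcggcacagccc

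RefSeq promoter windows matched 31 of the 41 genes, with 38 windows in all. The letters AGGTCA stood on either strand within 250 bases upstream in 5 of these 38 windows (13.2%), those of Acadm, Acadvl, Scp2, Pex11g and a second start of Elovl1. The share over all 32851 windows of the table was 14.0%, and over the 5873 windows of genes tested on the arrays 11.9%, so the element was about as frequent here as elsewhere. It began 87 bases before the start in Acadvl, 109 in Scp2, 173 in Pex11g and 249 in Acadm, at the far edge of that window. The full PPAR-RXR site, a direct repeat of AGGTCA with any 1 base between the copies, searched on both strands, was in none of the 38 windows and in 0.0335% of all windows. The letters TCACNCCAC on either strand, a site of the sterol-regulated factor SREBP, were found only before Echdc1 among the matched genes, in 1 of 38 windows (2.63%), against 1.05% of all windows. Base composition was close to that of the tested genes: the median GC content was 58.2% against 58.4%, and the median number of CpG dinucleotides was 12 against 14. The Elovl2 window shown is rich in GC, at 87.2%, and the Acadvl window is at 49.6%.

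Most of the fatty acyl genes were higher in liver. Of the 29 tested, 22 (75.9%) were higher in liver at an adjusted p under 0.05 (limma, Benjamini-Hochberg over 5731 genes), 2 (6.9%) stood on the spleen side and the other 5 (17.2%) passed in neither direction. Over all tested genes 27.1% were called toward liver, 27.8% toward spleen and 54.9% in either direction. The median log2 ratio was 2.06 for the members against -0.03 for all tested genes. On all 3 arrays the ratio was above 0 for 23 members and below 0 for 2, a count that was not made for all genes. A difference above 2-fold was itself shown for 16 members toward liver and for none toward spleen (limma treat), where all genes gave 7.31% and 4.76%. With genes that had a ratio on at least 2 arrays admitted, 25 members were called toward liver, where all 6919 such genes gave 23%. Without array 1 the liver and spleen calls were 21 and 2 of 30 tested members, where all genes gave 16% and 15.4%. They were 25 and 2 of 34 without array 2 (all genes 22.7% and 26.9%), and 22 and 1 of 29 without array 3 (all genes 24.1% and 22.9%).

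**Figure D1:**
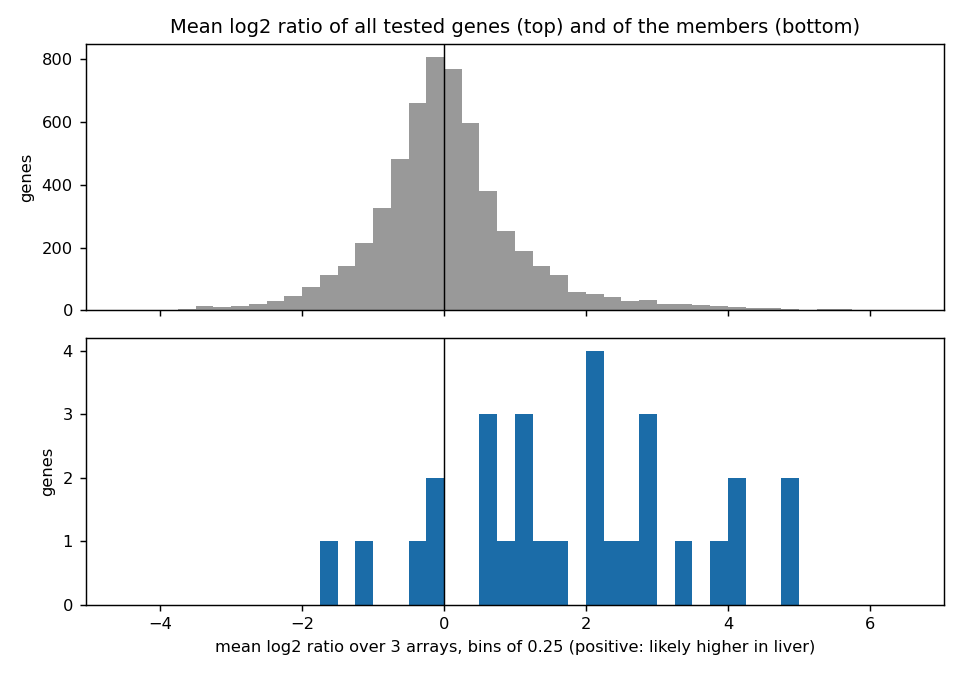
Histograms of the mean log2 ratio over 3 arrays in bins of 0.25, with the number of genes on the vertical axes, for all 5731 tested genes (top) and the 29 tested fatty acyl and peroxisome genes (bottom). All genes centre at -0.03, whereas the members centre at 2.06 and reach 4.96, with 2 called genes below 0.

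The ratios ran down a continuous scale. Pecr (4.96), Elovl2 (4.82), Bdh1 (4.19) and Decr1 (4.06) lay at or above 4, a level reached by 0.681% of all tested genes, and with Dgat2 (3.97) and Fads2 (3.49) there were 6 at or above 3, where all genes gave 1.95%. In the order of the 29 means, the array values of 23 of the 28 neighbouring pairs overlapped. The gaps without overlap lay between Elovl2 and Bdh1, Dgat2 and Fads2, Fads2 and Etfb, Pex13 and Acadl, and Echdc1 and Dgat1. Elsewhere the order of neighbours was within the spread of the arrays. The SD ranged from 0.03 (Dgat1) to 1.35 (Acadvl), with a median of 0.24 against 0.22 for all tested genes.

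**Figure D2:**
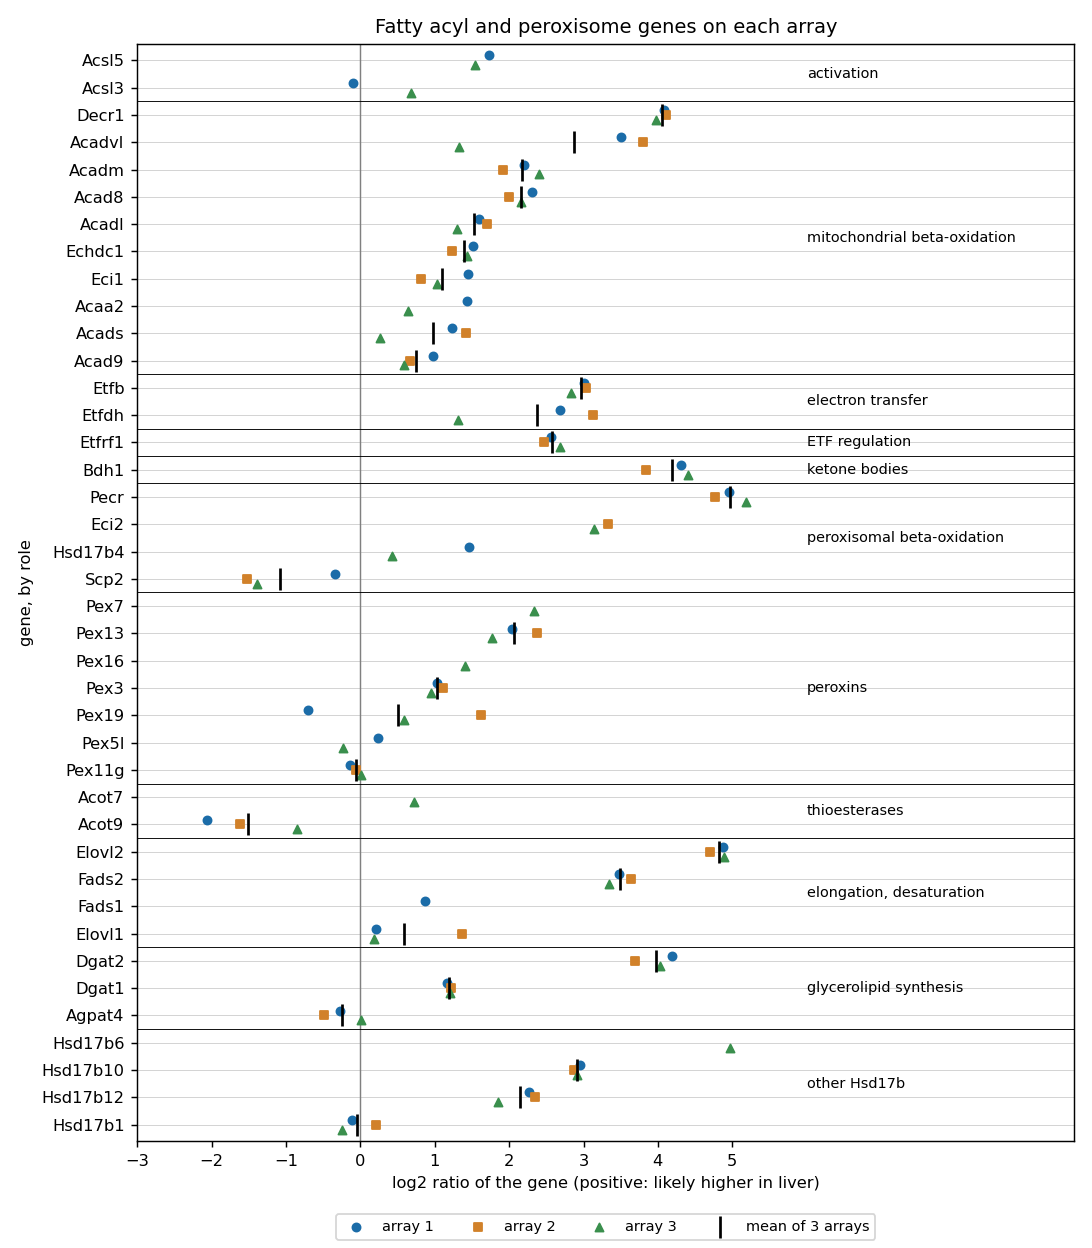
Log2 ratio of each gene (horizontal axis) on arrays 1, 2 and 3 (circles, squares and triangles), grouped by role, for the 40 genes with any ratio; black bars are means of genes with all 3 arrays. Pecr and Elovl2 lie near 5 on each array, and the mitochondrial enzymes spread between 0.74 and 4.06 in their means. Scp2, a mean over opposed spots, and Acot9 lie below 0 and were the members called toward spleen.

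The mitochondrial list, made up of the Acad, Eci1, Echdc1, Decr1 and Acaa2 symbols, was all on the liver side. All 9 tested genes of the 10 were called there, with a median of 1.53, where all genes gave 27.1% and a median of -0.03. With each gene's own variance 5 were called (all genes 15.2%), and against a 2-fold difference likewise 5 (all genes 7.31%). This list holds Acad8, Acad9 and Echdc1, which act outside fatty acid beta-oxidation itself, and without these 3 the count was 6 of 6, with a median of 1.85. Decr1, the mitochondrial dienoyl-CoA reductase that handles polyunsaturated chains, gave 4.08, 4.11 and 3.98 on arrays 1, 2 and 3. Its mean of 4.06 ± 0.07 is a 16.6-fold difference (limma adjusted p = 2.75e-05), with arrays that barely differed. Eci1, an enoyl-CoA isomerase that acts on unsaturated chains, was much closer to even, at 1.44, 0.82 and 1.03 (mean 1.10 ± 0.32, limma adjusted p = 0.00256, and 0.0738 with its own variance). Its range over the alternatives reached 1 in the limma treat test against a 2-fold difference, which is not a test against 0. Both enzymes prepare unsaturated chains for the spiral, and their array values did not overlap.

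The acyl-CoA dehydrogenases catalyse the opening step for chains of different length. Very long-chain Acadvl gave 3.50, 3.80 and 1.33, a mean of 2.87 ± 1.35 with array 3 far below the others (limma adjusted p = 0.00454). With its own variance in place of the moderated variance the call was lost (adjusted p = 0.13, the highest over the alternatives). That array 3 value averages the spot of the other arrays (2.35) with a repeat spot of the same accession that had a ratio on array 3 only (0.30). The spot with all 3 arrays alone averaged 3.22 ± 0.76. Long-chain Acadl gave 1.59, 1.70 and 1.30 (mean 1.53 ± 0.21), medium-chain Acadm 2.20, 1.92 and 2.41 (mean 2.17 ± 0.24) and short-chain Acads 1.24, 1.42 and 0.26 (mean 0.97 ± 0.62).

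All 4 were called toward liver (all genes 27.1%), and their order depended on the spots taken for Acadl. As gene means, Acadm exceeded Acadl on each array, by 0.64 ± 0.45 on average. An AK clone of Acadl (2.43, 2.38 and 2.53) instead exceeded Acadm on each array, by 0.27 ± 0.17. The 4 AU spots of Acadl lay lower, as did another AK clone with only an array 3 value of 0.29. With the largest single spot of each gene the ratios fell with chain length, from Acadvl (3.22) over Acadl (2.44) and Acadm (2.17) to Acads (0.97). That order appeared under this setting only, which takes the highest Acadl spot. Without AW and AU clones Acadl (2.07) stayed below Acadm (2.17), but the spot of 0.29 was then averaged into the array 3 value of Acadl. On arrays 1 and 2 that setting left only the AK clone that exceeded Acadm. Acadm exceeded Acads on each array, by 1.20 ± 0.85. Acadvl exceeded Acads on each array, by 1.90 ± 0.73, and exceeded Acadm on 2 of 3 arrays only (difference 0.70 ± 1.57). With 3 arrays an exact two-sided sign-flip test cannot give a p below 0.25, so such differences within a family are given without a test. Acads lost its call without array 1 (limma adjusted p = 0.127) and with exact zeros kept as values (limma adjusted p = 0.0875). It also lost the call with its own variance in place of the moderated variance (adjusted p = 0.187). Over all alternatives its limma adjusted p ran from 0.0043 to 1, the top being the test against a 2-fold difference.

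The remaining genes of the mitochondrial list gave these values. Acad8, which acts on a valine product, gave 2.30, 2.00 and 2.16 (mean 2.16 ± 0.15), and its 2 clones averaged 2.08 and 2.23. Acad9, known for the assembly of respiratory complex I, was among the smallest called, at 0.97, 0.67 and 0.59 (mean 0.74 ± 0.20). Its limma adjusted p of 0.00563 rose to 0.0651 without array 1, within a range from 0.00231 to 1 over the alternatives. The top of that range was the test against a 2-fold difference. Echdc1, a cytosolic decarboxylase that removes a faulty by-product of fatty acid synthesis, gave 1.51, 1.23 and 1.44 (mean 1.39 ± 0.15), with clones at 1.34 and 1.45. Acaa2, the mitochondrial thiolase of the closing step, had 1.43 and 0.64 on arrays 1 and 3 (limma adjusted p = 0.0251 among genes with at least 2 arrays).

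Electrons from these dehydrogenases pass through electron transfer flavoprotein. Its beta subunit Etfb gave 3.01, 3.04 and 2.84 (mean 2.96 ± 0.11, 7.79-fold, limma adjusted p = 5.07e-05). Etfdh, which hands the electrons on to ubiquinone, gave 2.68, 3.13 and 1.31 (mean 2.37 ± 0.95, limma adjusted p = 0.00278, and 0.106 with its own variance, the highest over the alternatives), below Etfb on arrays 1 and 3 and above it on array 2. Etfrf1, a small mitochondrial protein that regulates the flavoprotein, gave 2.57, 2.47 and 2.68 (mean 2.57 ± 0.10). All 3 genes were called toward liver, where all genes gave 27.1%, and the values of Etfb and Etfrf1 varied little between arrays.

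Ketone body metabolism was represented by Bdh1 alone, the mitochondrial enzyme that interconverts acetoacetate and beta-hydroxybutyrate. It gave 4.31, 3.84 and 4.40, a mean of 4.19 ± 0.30 or 18.2-fold (limma adjusted p = 3.85e-05). Oxct1, which starts the use of ketone bodies and is known to be scarce in hepatocytes, stood on the other side at -1.93, -1.59 and -1.39 (mean -1.64 ± 0.28, limma adjusted p = 0.000494). The clones of Oxct1 were all below 0, averaging -2.08, -1.52 and, over 2 arrays, -1.16. These 2 enzymes of ketone body metabolism thus had opposite signs on each array.

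The peroxisomal beta-oxidation list, drawn up by symbol, had 4 measured members, of which only Pecr and Scp2 could be tested. Pecr, a peroxisomal enoyl-CoA reductase that saturates a double bond, was placed in it by name. Whether its ratio bears on beta-oxidation itself was not tested. Pecr gave 4.95, 4.76 and 5.18, the highest mean of all members (4.96 ± 0.21, 31.2-fold, 95% confidence interval 4.63 to 5.30, limma adjusted p = 2.75e-05). It exceeded the mitochondrial Decr1 on each array, by 0.91 ± 0.28. Eci2, the peroxisomal enoyl-CoA isomerase, had 3.33 and 3.15 on arrays 2 and 3 and no ratio on array 1 (mean 3.24 ± 0.13, n = 2, limma adjusted p = 0.000265 among genes with at least 2 arrays). It exceeded Eci1 on both of these arrays, by 2.32 ± 0.29 (n = 2). Hsd17b4, the bifunctional enzyme of branched-chain oxidation, had 1.47 and 0.42 on arrays 1 and 3 and was not called (limma adjusted p = 0.0526 among genes with at least 2 arrays).

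Scp2 carried the sharpest conflict between spots. The gene encodes a sterol carrier and, from another promoter, a peroxisomal thiolase fused to it. Over all 6 spots it gave -0.34, -1.52 and -1.39 (mean -1.08 ± 0.65, limma adjusted p = 0.0149), a call toward spleen. A spot of a clone with an AK accession, the kind given to full-length cDNAs, gave 3.45, 3.45 and 1.98 (mean 2.96 ± 0.85), and a second AK clone gave 4.31 on array 1 only. That second clone entered the gene value of array 1 alone, so the spread of Scp2 over the arrays includes a change of spots. The remaining 4 spots shared a single AW accession, an expressed sequence tag, and averaged -2.22, -2.29, -2.64 and -2.76.

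All 4 AW spots were called toward spleen and the AK spot with 3 arrays toward liver (limma on spots, adjusted p = 0.000496 for the AK spot and 0.000229 at most for the AW spots). Without AW and AU clones the gene stood at 3.10 and was called toward liver (limma adjusted p = 0.00128), and with its largest single spot at 2.96. Over all alternatives, which hold calls in both directions, the limma adjusted p ran from 9.62e-05 to 1, the top being the test against a 2-fold difference. Without array 3 the spleen call was lost (-0.93, limma adjusted p = 0.0778). The gene mean therefore describes a mixture, and the direction of Scp2 is not settled by these spots. Across the platform, 42 genes had both AW or AU spots and other spots on all 3 arrays. In 10 of them (23.8%) the averages of the kinds lay on opposite sides at 0.5 or more, with the AW or AU spots toward spleen in 7 and toward liver in 3.

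**Figure D3:**
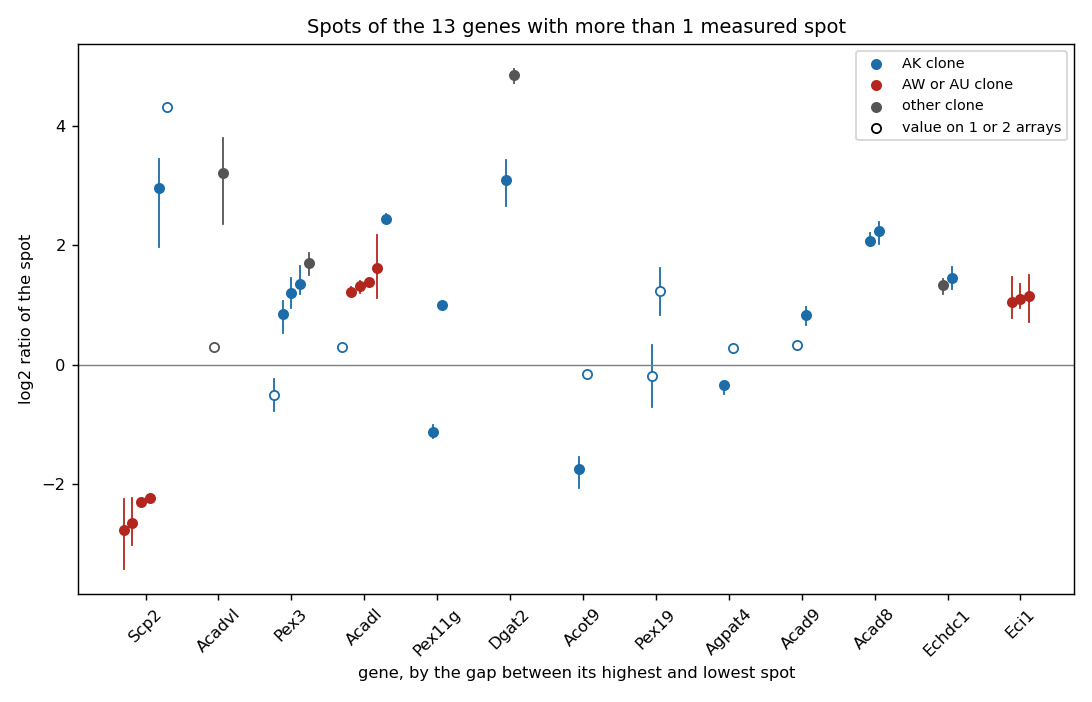
Mean log2 ratio of each spot (vertical axis) for the 13 genes with more than 1 measured spot, ordered by the gap between highest and lowest spot; lines span the arrays, colours mark the kind of accession, and open circles had a value on 1 or 2 arrays. Scp2 spans from -2.76 to 4.31 and Pex11g from -1.13 to 1.01, whereas the 3 Eci1 spots lie between 1.05 and 1.15.

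Spots of most other genes lay on the same side of 0. The 3 measured Eci1 spots, of 1 accession, averaged 1.05, 1.10 and 1.15. The 4 Acadl spots of an AU accession averaged from 1.22 to 1.61, below an AK clone of Acadl at 2.44 ± 0.08. A further AK clone of Acadl had only an array 3 value of 0.29. Of the 13 genes with more than 1 measured spot, 3 (Scp2, Pex11g and Pex3) had spots on opposite sides of 0 at 0.5 or more. Tested singly, 45 member spots had all 3 arrays, of which 36 were called toward liver, 6 toward spleen and 3 not called, where all 10614 such spots gave 28.7% and 29.6%. The 6 on the spleen side were the 4 AW spots of Scp2 and 1 spot each of Pex11g and Acot9.

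Several array 3 values rested on spots seen on that array alone. There were 9 such member spots, of which 6 lay within 0.8 of 0, and 5 tested genes (Acad9, Acadl, Acadvl, Acot9 and Agpat4) averaged such a spot into array 3. The other 4 were the only spots of their genes: Hsd17b6 at 4.97, Pex7 at 2.33, Pex16 at 1.40 and Acot7 at 0.72. Array 3 gave the lowest value for 13 of the 29 tested members, array 2 for 12 and array 1 for 4. The number of spots with a ratio differed between the arrays in the same way over the whole platform (13066, 11120 and 15210 of 16273), and the part of this in the members' values was not tested.

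The peroxins were mixed. Pex13, a membrane protein of the docking complex for imported enzymes, gave 2.04, 2.37 and 1.77 (mean 2.06 ± 0.30, 4.17-fold, limma adjusted p = 0.000281). Pex3, which anchors the carrier Pex19 and is needed to form the membrane, gave 1.03, 1.11 and 0.95 (mean 1.03 ± 0.08, limma adjusted p = 0.00104). Of its 5 clones, 4 averaged 0.85 to 1.70 and were each called toward liver, while an AK clone with -0.77 and -0.24 on arrays 1 and 3 lay below 0. Pex19 itself, the soluble receptor for peroxisomal membrane proteins, ran from -0.70 on array 1 to 1.62 on array 2 and 0.58 on array 3, and was not called (limma adjusted p = 0.35). No spot of Pex19 had all 3 arrays: the array 1 value came from a spot that gave 0.33 on array 3, and the array 2 value from a repeat spot that gave 0.83 there, so the change of sign cannot be told apart from the change of spot.

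Pex11g belongs to the family that elongates and divides peroxisomes, and its mean near 0 (-0.06 ± 0.08, limma adjusted p = 0.676) hid a pair of opposed AK clones. The clone on the spleen side gave -1.22, -1.16 and -1.01 and the clone on the liver side 0.94, 1.05 and 1.04. Both were called when tested as spots (limma adjusted p = 0.000581 and 0.000787), so the clones were each steady over the arrays and opposite in sign. Pex5l, a relative of the import receptor known mainly from brain, had 0.24 and -0.23 on arrays 1 and 3 (limma adjusted p = 0.979 among genes with at least 2 arrays). Of 7 peroxins measured, 2 of the 4 tested were called toward liver and none toward spleen. The shares over all tested genes were 27.1% and 27.8%, and 54.9% in either direction.

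Acot9 was the only member besides Scp2 called toward spleen. It is a mitochondrial thioesterase, which cleaves acyl-CoA to free acid and CoA. It gave -2.06, -1.62 and -0.85, a mean of -1.51 ± 0.61 or 2.84-fold (limma adjusted p = 0.0037), and no array overlapped 0. On the clone with all 3 arrays alone it gave -2.06, -1.62 and -1.54 (mean -1.74 ± 0.28), since its other clone had only an array 3 value of -0.16. With its own variance in place of the moderated variance Acot9 lost its call (limma adjusted p = 0.108, from 0.000279 to 0.248 over all alternatives). The top of that range was the test against a 2-fold difference. Acot7, a cytosolic thioesterase abundant in brain, had 0.72 on array 3 only.

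Of 4 elongases and desaturases 3 were tested, and the 2 of polyunsaturated chains were called toward liver (all genes 27.1%). Elovl2, the elongase of long polyunsaturated fatty acids, gave 4.87, 4.70 and 4.89 (mean 4.82 ± 0.11, 28.2-fold, 95% confidence interval 4.53 to 5.11). Elovl1, which extends saturated and monounsaturated chains and is broadly expressed, gave 0.21, 1.36 and 0.18 and was not called (mean 0.58 ± 0.67, 95% confidence interval -0.06 to 1.23, limma adjusted p = 0.108), with array 2 apart from the others. Elovl2 exceeded Elovl1 by 4.23 ± 0.78, on each of 3 arrays. Fads2, the desaturase that begins the polyunsaturated pathway, gave 3.47, 3.64 and 3.35 (mean 3.49 ± 0.14, 11.2-fold), and Fads1, the later desaturase of that pathway, had 0.87 on array 1 only.

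Both diacylglycerol acyltransferases, which finish triglyceride and are unrelated in sequence, were called toward liver, and the remaining tested acyltransferase was not. Dgat2 gave 4.19, 3.69 and 4.03 (mean 3.97 ± 0.26, 15.7-fold, limma adjusted p = 3.84e-05), over 2 clones that averaged 3.09 ± 0.40 and 4.85 ± 0.12 and did not overlap. Dgat1 gave 1.16, 1.22 and 1.20 (mean 1.19 ± 0.03, 2.29-fold, limma adjusted p = 0.000563), the narrowest spread of all members. Dgat2 exceeded Dgat1 by 2.78 ± 0.29, on each array. Agpat4, an acyltransferase that makes phosphatidic acid, gave -0.27, -0.49 and 0.01 and was not called (mean -0.25 ± 0.25, limma adjusted p = 0.184). With only the clone measured on all 3 arrays Agpat4 stood at -0.34 and was called toward spleen (limma adjusted p = 0.0479, from there to 1 over the alternatives). Those alternatives include the test against a 2-fold difference.

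Activation of fatty acids by CoA was seen only in part. Acsl5, a long-chain acyl-CoA synthetase, had 1.72 and 1.55 on arrays 1 and 3 (mean 1.64 ± 0.13, n = 2, limma adjusted p = 0.00172 among genes with at least 2 arrays). Acsl3, its relative of the endoplasmic reticulum and lipid droplets, had -0.09 and 0.69 on the same arrays and was not called there (limma adjusted p = 0.36). Acsl5 was the higher on both arrays, by 1.34 ± 0.68 (n = 2).

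The Hsd17b family is named for steroid conversion but includes enzymes of fatty acid metabolism. Besides Hsd17b4 it had 4 members, of which 3 were tested and 2 called toward liver (all genes 27.1%). Hsd17b10, a mitochondrial enzyme of isoleucine breakdown and of mitochondrial RNA processing, gave 2.96, 2.88 and 2.91 (mean 2.91 ± 0.04, 7.53-fold, limma adjusted p = 4.52e-05). Hsd17b12, the ketoacyl-CoA reductase of the elongation cycle, gave 2.26, 2.35 and 1.84 (mean 2.15 ± 0.27, limma adjusted p = 0.000211). Hsd17b1, which makes estradiol, gave -0.12, 0.21 and -0.24, straddling 0 (mean -0.05 ± 0.24, limma adjusted p = 0.782). Hsd17b12 exceeded Hsd17b1 on each array, by 2.20 ± 0.16. Hsd17b6, an enzyme of androgen and retinoid metabolism, had the highest single value of these 4 genes, 4.97, but on array 3 only.

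Other genes of fatty acid and lipid metabolism were also mostly higher in liver. Of 117 listed genes outside the families above, 54 had a spot and 36 were tested, with 23 called toward liver, 4 toward spleen and 9 not called, against 27.1% and 27.8% over all genes. Their median was 1.01. With each gene's own variance, 14 were called toward liver and 2 toward spleen, where all genes gave 15.2% and 10.3%.

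Hacl1, the lyase of alpha-oxidation of branched fatty acids in peroxisomes, led with 4.85, 4.71 and 4.74 (mean 4.77 ± 0.08). Nudt7, a peroxisomal hydrolase of CoA, followed at 3.94 ± 0.25, and Dbi, which binds acyl-CoA in the cytosol, at 3.67 ± 0.05. The citrate carrier Slc25a1 (3.19 ± 0.09) and malic enzyme Me1 (2.92 ± 0.19) supply acetyl units and NADPH for synthesis, and the desaturase Scd1 stood at 2.74 ± 0.58. Of the 7 lipogenesis genes tested, 6 were called toward liver, where all genes gave 27.1%. Among them was Tecr, the reductase that closes each elongation cycle, whose 5 clones all lay between 2.02 and 2.19. Plin5, a lipid droplet protein of oxidative tissues, stood at 3.18 ± 0.18.

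Regulators of lipid metabolism were thinly covered. Of 30 listed, 9 were tested, with 5 called toward liver and none toward spleen. All tested genes gave 27.1% and 27.8%, and 54.9% in either direction. Insig2, a retention factor of the sterol-regulated pathway, stood at 2.83 ± 0.15, the fasting hormone Fgf21 at 2.81 ± 0.24 and Angptl4, an inhibitor of lipoprotein lipase, at 2.53 ± 0.54. The phosphatidate phosphatase Lpin1 (2.18 ± 0.12) and the nuclear receptor Esrra (0.61 ± 0.23) were the other two. Esrra lost its call without array 1 (limma adjusted p = 0.108) and with its own variance (adjusted p = 0.102), within a range from 0.0143 to 1. The top of that range was the test against a 2-fold difference. The bile acid receptor Nr1h4 had 4.13 and 2.60 on arrays 1 and 3.

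Of the other lipid genes, the 4 called toward spleen were Oxct1, Far1, Nudt19 and Fabp1. Far1, which makes fatty alcohols for ether lipids, stood at -1.58 ± 0.24, with clones at -0.75 and -2.41. Nudt19, another peroxisomal CoA hydrolase, stood at -1.29 ± 0.26 over 6 spots. Its 4 AU spots, of 1 accession, averaged -2.44 and its 2 AK clones 0.83 and 1.19, so that without AW and AU clones it was called toward liver at 1.01 (limma adjusted p = 0.00188). Over all alternatives, which hold calls in both directions, the limma adjusted p of Nudt19 ran from 2.01e-05 to 0.27, the top being the test against a 2-fold difference. Fabp1, a fatty acid-binding protein known to be abundant in hepatocytes, stood at -0.44 ± 0.18 from a single spot with an AV accession. It lost its call without array 1 (limma adjusted p = 0.209) or array 3 (limma adjusted p = 0.0588), within a range from 0.0246 to 1. The top of that range was the test against a 2-fold difference. The kinase subunit Prkaa2, the lowest of the uncalled genes, stood at -0.35 ± 0.17 (limma adjusted p = 0.0597).

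**Figure D4:**
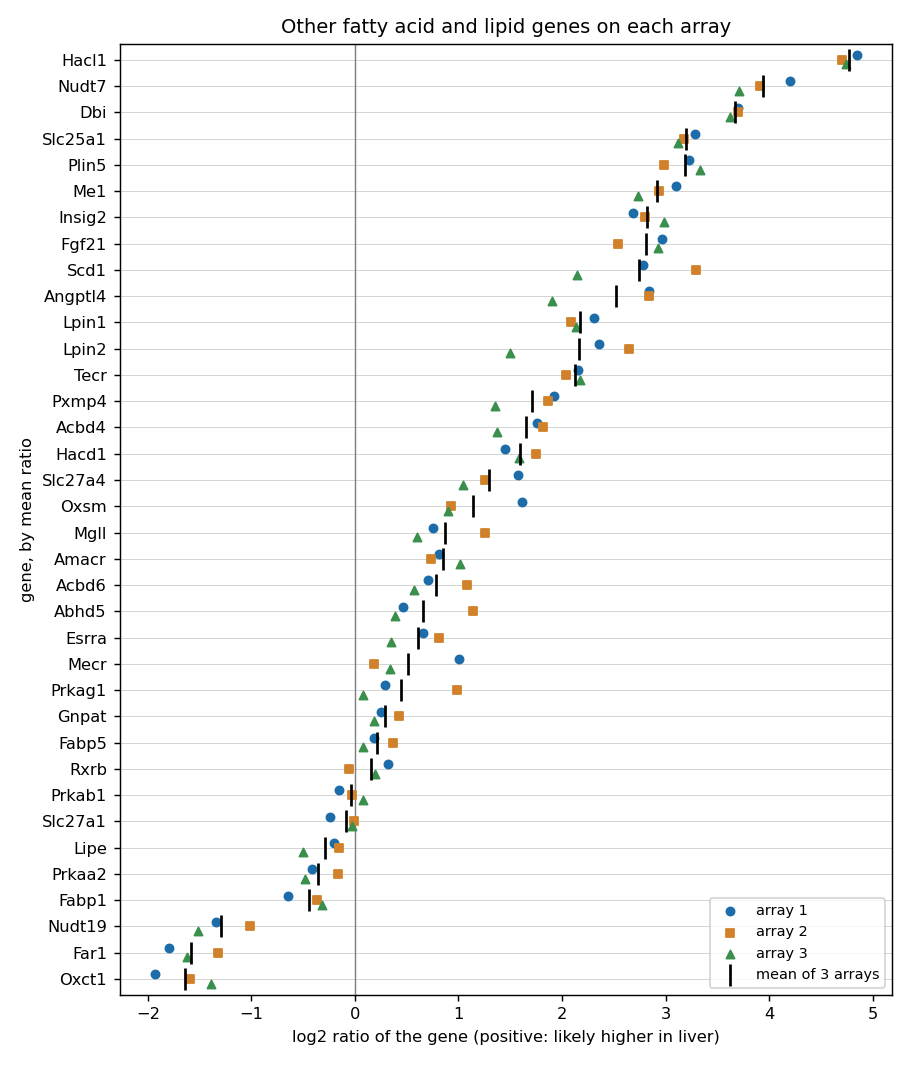
Log2 ratio (horizontal axis) of the 36 tested lipid genes outside the named families on arrays 1, 2 and 3 (circles, squares and triangles), with black bars for means over the arrays, ordered by mean. Hacl1 lies highest at 4.77 and Oxct1 lowest at -1.64; 23 genes were called toward liver and 4 toward spleen.

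Markers of other tissues rich in fatty acid enzymes had few spots. Of 7 adipose markers only Lipe had one, at -0.29 ± 0.19 and not called (limma adjusted p = 0.11). Of 5 muscle markers Myl1 (1.60 ± 0.07) and Ckm (0.66 ± 0.22) had one, and both were called toward liver. Of 7 pancreas markers 4 were tested, none toward liver, with Amy2a5 called toward spleen at -1.32 ± 0.59. The part of muscle RNA in the members' ratios was not tested.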

How the data were processed

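The deposited table holds a log2 ratio for each spot on each of the 3 arrays. Its log base is inferred: the upper limit of the values equals the log2 of 100. How the authors corrected background, normalized or filtered spots, and so how the ratios were centred and scaled, is not stated in the sources used here. Channel intensities were not analysed here, so the signal behind a ratio is unknown; precision is limited by having 3 arrays.

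An exact 0 was read as missing, since 3207, 5153 and 1063 spots held it. Of 16273 spots, 12336 had 1 gene in the platform annotation, 61 had several and 3876 none; symbols were updated through RefSeq names of GRCm38.p6 for 12228 spots. Spots of a gene were averaged per array. limma 3.58.1, run in R 4.3.3, tested each mean against 0 (lmFit with an intercept, eBayes, two-sided), on 5731 genes and, separately, 10614 spots with 3 arrays, and called at a Benjamini-Hochberg adjusted p under 0.05. With 3 arrays, 2 residual degrees of freedom were joined by 3.51 prior ones. The fit was tested on simulated data. Tables were made in Python 3.11.15.

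Members, roles and lists were chosen with earlier results of these data known. Any member could be named; arrays are printed for the 20 highest and 10 lowest members, for those with opposed spots and for family pairs, and of the other lipid genes the 10 highest, the 5 lowest and any in a count of 5 or fewer are named, mostly by mean and SD; others named with values (Tecr, Nr1h4) were chosen after their values were seen. Protein sequence features were not used here.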

Additional observations from a re-analysis of the deposited data

How the results depend on the processing

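Of the 29 tested members, 15 kept direction and call under all 14 alternatives: genes called toward liver, and Elovl1, which stayed uncalled. Leaving aside each gene's own variance and the test against a 2-fold difference, 21 kept them; Acad9, Acads, Agpat4, Hsd17b1, Pex11g, Pex19 and Scp2 did not, and Eci1, with AU clones only, could not be tested without them. Pex19 could not be tested on its largest spot or on spots with all 3 arrays. The count of members called toward liver (22) ran from 21 to 25 with an array left out, and that toward spleen (2) from 1 to 2. Over all genes the shares then ran from 16% to 24.1% toward liver and from 15.4% to 26.9% toward spleen. With own variances the member counts were 17 and 0, where all genes gave 15.2% and 10.3%. The liver calls lost were those of Acad9, Acads, Acadvl, Eci1 and Etfdh. The spleen count was 1 with exact zeros kept or without AW and AU clones, and 0 against a 2-fold difference. By role, with own variances, mitochondrial beta-oxidation had 5 liver calls, electron transfer 1, and peroxisomal beta-oxidation and thioesterases 0 spleen calls. Against a 2-fold difference the liver calls were 5 for mitochondrial beta-oxidation, 1 for glycerolipid synthesis and 1 for peroxins, where all genes gave 7.31%. The spleen calls were then 0 for peroxisomal beta-oxidation and thioesterases, where all genes gave 4.76%. Peroxisomal beta-oxidation had 2 liver calls with genes on at least 2 arrays, with the largest single spot or without AW and AU clones, and 1 to 2 with an array left out. Its spleen calls were 0 with exact zeros kept, the largest single spot or no AW and AU clones, and 0 to 1 with an array left out. The largest single spot gave peroxins 1 spleen call (Pex11g), and spots with all 3 arrays gave glycerolipid synthesis 1 (Agpat4). Of other lipid genes, 14 were called toward liver and 2 toward spleen with own variances, and 2 toward spleen against a 2-fold difference. Over the member spots tested singly, calls ran from 36 to 39 toward liver and were 6 toward spleen with an array left out, a count that was not made for all spots.

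The members' median (2.06) was 1.09 with exact zeros kept, 1.53 with genes on at least 2 arrays, and 1.46 to 2.08 with an array left out. With exact zeros kept the median was 0.60 for glycerolipid synthesis, 1.90 for the other Hsd17b genes, 2.04 for elongation and desaturation and -0.33 for thioesterases, since missing ratios then count as 0. With the largest single spot it was 2.17 for mitochondrial beta-oxidation, 1.70 for peroxins and 3.96 for peroxisomal beta-oxidation, and without AW and AU clones 2.11 for the mitochondrial and 4.03 for the peroxisomal role. With an array left out it ran from 2.05 to 2.31 for the other Hsd17b genes, from 0.0077 to 1.07 for peroxins and from 0.94 to 3.24 for peroxisomal beta-oxidation. Scp2 turned to 2.96 with the largest single spot and 3.10 without AW and AU clones, and Nudt19 to 1.01 without these clones. Uncalled genes turned with an array left out: Hsd17b1 ran from -0.18 to 0.048, Pex19 from -0.060 to 1.10 and Prkab1 from -0.0904 to 0.026. The causes of the other changes were not tested. No paired analysis was possible because each value is already a ratio of both tissues within an array and no other group exists to pair it with.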
